A study of Mus musculus with 6 samples.

Results

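To describe how germ cell regulators of translation are expressed when the splicing factor SRSF1 is lost, the mRNAs of 9 RNA-binding proteins were followed in RNA-seq of STRA8+ cells from mouse testis. The 9 genes were taken by name from the 54532 genes of the expression table, and all 9 were found. They are the DAZ family genes *Dazl* and *Boll*, the Dead end gene *Dnd1*, the DEAD box RNA helicase genes *Ddx4* and *Ddx25*, the germ cell Y-box gene *Ybx2*, the cytoplasmic polyadenylation element binding protein gene *Cpeb1*, and the Musashi genes *Msi1* and *Msi2*. The study comprised 2 groups of 3 libraries. The control libraries carry the genotype label Cre, and the cKO libraries come from conditional *Srsf1* knockouts. STRA8 is induced by retinoic acid in differentiating spermatogonia and in germ cells entering meiosis. The Cre driver, the age of the mice and the method that isolated the cells are not given in the sources used here. Nothing states that the libraries of a group came from separate animals, so the p-values measure the spread between these libraries, which may be technical.

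Male germ cells make many mRNAs long before they use them, because transcription shuts down when spermatids elongate. RNA-binding proteins therefore hold mRNAs in stores, protect them, lengthen or shorten their poly(A) tails and release them to ribosomes at the right stage. DAZL and CPEB1 are known for activating stored mRNAs, DND1 for acting through untranslated regions with NANOS proteins and the deadenylase, DDX4 and DDX25 for work in the germ cell granules called nuage and chromatoid body, YBX2 for coating and stabilising stored mRNAs, and the Musashi proteins for translational control in stem cells and germ cells.

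Expression values were FPKM as deposited, that is fragments scaled to a length for each gene and to a size for each library. For the 9 members the length was that of the merged exons of all transcript models of the gene. The library size was 0.971 to 1.05 times the sum of the library's fragments. The median-of-ratios factor of the deposited values was 1.006 in each library, so the values had been brought to a common scale between libraries. Depth recovered from those values ranged from 15364511 to 17310353 fragments per control library and from 14447887 to 15326722 per cKO library. *Srsf1* stood at 84.7, 45.2 and 51.9 FPKM in the controls and at 5.08, 4.94 and 5.17 FPKM in the cKO, in accord with the labels of all 6 libraries. *Stra8* was read at 222 to 262 FPKM in the controls and 242 to 313 FPKM in the cKO. Of 20 markers of Sertoli, Leydig, peritubular, blood and endothelial cells, 10 passed the filter on low values, of which 1 rose (*Rhox5*) and the other 9 were not called, where 11.8% of all genes tested were higher and 22.2% lower. The summed level of the 20 ranged from 78.8 to 91.4 FPKM in the controls and from 60.9 to 134 FPKM in the cKO. Most of that sum in each library was the Sertoli marker *Clu*, at 42.1 to 63.1 FPKM in the controls and 32.6 to 79.3 FPKM in the cKO.

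The promoters of the 5 members whose levels are described most closely are shown so that their sequence can be read beside their expression. Each is the 250 bases before a transcription start given by RefSeq on GRCm38.p6, the upstream start where RefSeq lists 2, written 5′ to 3′ on the strand of the gene. Capitals mark the E-box CACGTG and the CCAAT box, which reads ATTGG on the other strand. The windows lie at chr11:69935649-69935898 on the plus strand for *Ybx2*, and on the minus strand at chr9:35558471-35558720 for *Ddx25*, chr1:55363754-55364003 for *Boll*, chr13:112652311-112652560 for *Ddx4* and chr17:50293621-50293870 for *Dazl*.
Ybx2: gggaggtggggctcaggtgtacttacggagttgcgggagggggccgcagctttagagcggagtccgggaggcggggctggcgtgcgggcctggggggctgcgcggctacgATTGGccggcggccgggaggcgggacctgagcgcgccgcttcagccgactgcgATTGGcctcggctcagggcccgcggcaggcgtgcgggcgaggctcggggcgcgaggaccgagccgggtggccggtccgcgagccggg
Ddx25: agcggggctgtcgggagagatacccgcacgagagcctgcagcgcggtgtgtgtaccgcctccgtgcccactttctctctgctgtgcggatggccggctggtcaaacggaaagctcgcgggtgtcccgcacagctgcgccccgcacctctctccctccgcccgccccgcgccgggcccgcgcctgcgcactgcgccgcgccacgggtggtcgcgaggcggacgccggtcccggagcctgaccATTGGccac
Boll: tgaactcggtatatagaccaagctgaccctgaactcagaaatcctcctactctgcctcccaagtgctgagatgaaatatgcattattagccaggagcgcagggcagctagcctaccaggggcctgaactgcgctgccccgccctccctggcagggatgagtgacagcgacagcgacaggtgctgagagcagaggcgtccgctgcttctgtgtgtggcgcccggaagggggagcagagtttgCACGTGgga
Ddx4: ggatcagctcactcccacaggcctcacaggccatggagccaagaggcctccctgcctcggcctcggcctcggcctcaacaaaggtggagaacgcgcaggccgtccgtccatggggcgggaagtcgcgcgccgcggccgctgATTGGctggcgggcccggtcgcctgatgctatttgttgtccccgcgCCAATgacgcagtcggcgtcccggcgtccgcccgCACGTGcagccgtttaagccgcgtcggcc
Dazl: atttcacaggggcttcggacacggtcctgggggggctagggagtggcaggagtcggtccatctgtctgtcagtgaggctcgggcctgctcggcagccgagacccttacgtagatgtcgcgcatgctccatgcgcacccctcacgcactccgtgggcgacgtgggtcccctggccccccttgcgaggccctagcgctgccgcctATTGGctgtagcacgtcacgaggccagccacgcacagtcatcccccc
In windows that ran from 250 bases before to 50 bases after the start, the E-box was present in 7.15% of 32851 mouse promoters and in at least 1 window of 5 of the 7 members examined, *Boll*, *Ddx4*, *Ddx25*, *Cpeb1* and *Msi2*. In *Boll* it lay 9 bases and in *Ddx4* 29 bases before the start, and in *Ddx25* and *Cpeb1* it lay in the 50 bases after it. The CCAAT box was present in 37.4% of all promoters and in 6 of the 7 members, *Cpeb1* being without it. The 7 members had 11 windows, so these counts per gene are not directly comparable with the shares per promoter. *Ybx2*, with 2 CCAAT boxes and no E-box in the sequence shown, had a GC content of 77.2% and 35 CpG dinucleotides in that window, against a median of 52.4% and 6 over all promoters. *Boll*, at the start shown, had 59.2% GC and 11 CpG dinucleotides. That start lies outside the gene as counted, whose end is at 55363469. At its other start, inside the counted gene, *Boll* had 78% GC, 33 CpG dinucleotides, 1 CCAAT box and no E-box. In all, 10 motifs were searched, and a match describes letters only.

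All 9 genes passed the filter on low values, which kept genes whose 6 libraries averaged 1 FPKM or more. In the cKO, 2 of the 9 rose (*Dazl* and *Dnd1*) and 5 fell (*Ybx2*, *Ddx25*, *Boll*, *Cpeb1* and *Ddx4*), by limma on log2(FPKM + 1) with a Benjamini-Hochberg adjusted p of at most 0.05 over 15451 genes, while *Msi1* and *Msi2* did not pass. Of all genes tested, 11.8% were higher and 22.2% lower in the cKO by the same rule, against 22.2% and 55.6% of these 9. The control and cKO libraries did not overlap for 7 of the 9 genes, a pattern seen in 50.4% of all genes tested. The median log2 fold change of the 9 was -0.24, against -0.0082 over all genes tested. *Ybx2* and *Ddx25* kept their calls under each of 15 alternative settings, whereas the calls of the other 5 were lost under at least 1. Leaving out 1 library left 0 to 2 higher and 2 to 5 lower, with the fewest, 0 and 2, without cKO replicate 3.

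**Figure D1:**
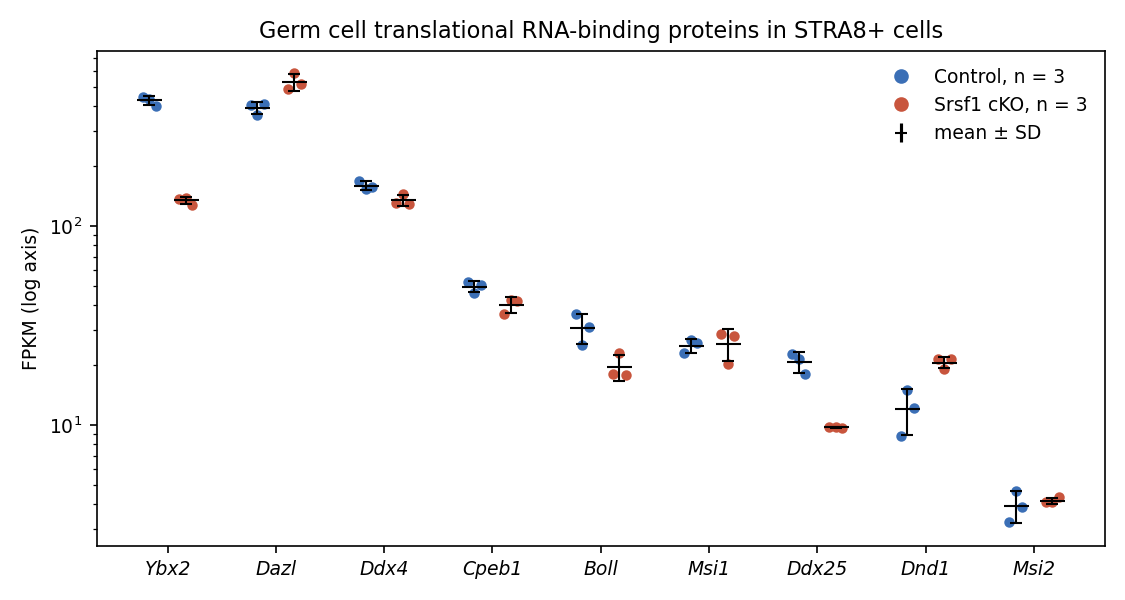
FPKM on a log axis of the 9 genes in the 3 control (blue) and 3 cKO (red) libraries, with black bars for the mean ± SD of each group. *Ybx2* moves from 427 to 135 FPKM, *Dazl* from 392 to 529 FPKM, and the 2 Musashi genes overlap between groups.

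*Ybx2* (chr11:69935796-69941605 on GRCm38, plus strand) had the largest change of the 9. YBX2, also called MSY2, packages mRNAs in spermatocytes and spermatids. Its mRNA stood at 444, 436 and 400 FPKM in the controls and at 137, 139 and 128 FPKM in the cKO. Every control library was thus above every cKO library by a wide gap. The mean fell from 427 ± 23.8 FPKM to 135 ± 5.88 FPKM (SD, n = 3 each), which was 31.6% of control, with a log2 fold change of -1.66 (SE 0.075, limma adjusted p = 1.10e-05). Among 22046 protein-coding genes it ranked 32nd by FPKM in the controls and 177th in the cKO. The log2 fold change stayed between -1.70 and -1.61 over the alternatives.

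The other Y-box genes were lower as well. *Ybx1*, which encodes the widely expressed Y-box protein, stood at 257, 272 and 252 FPKM in the controls and at 171, 147 and 150 FPKM in the cKO, with a log2 fold change of -0.74 (SE 0.082, limma adjusted p = 0.000623). *Ybx3*, which encodes MSY4, a partner of YBX2 on stored germ cell mRNAs, stood at 140, 149 and 130 FPKM in the controls and at 11.6, 9.22 and 12.3 FPKM in the cKO. Its log2 fold change was -3.56 (SE 0.11, limma adjusted p = 3.13e-06). In neither gene did the groups overlap, and both kept their call in the 15 alternatives.

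*Ddx25* (chr9:35536647-35558528, minus strand) encodes GRTH, a gonadotropin-regulated helicase that carries mRNAs out of the nucleus and into the chromatoid body, and without which spermatids stop developing. It was read at 22.8, 21.6 and 18.1 FPKM in the controls and at 9.77, 9.82 and 9.65 FPKM in the cKO. The 3 cKO values lay within a narrow range, well under the lowest control. The mean fell from 20.8 ± 2.45 to 9.74 ± 0.087 FPKM, 46.8% of control, with a log2 fold change of -1.02 (SE 0.098, limma adjusted p = 0.000311). *Ddx4* (chr13:112598333-112652475, minus strand), the mouse Vasa gene and a general marker of germ cells, was read at 169, 153 and 157 FPKM in the controls and at 130, 145 and 129 FPKM in the cKO. Its groups did not overlap, and its mean was 84.4% of control, with a log2 fold change of -0.24 (SE 0.077, limma adjusted p = 0.0480). That call was lost when any 1 library other than cKO replicate 2 was left out, with adjusted p from 0.0521 to 0.155. It was also lost with no filter, quantile scaling, recomputed FPKM, eBayes without the trend or a replicate block, with limma adjusted p from 0.0515 to 0.143. The *Ddx4* difference was thus near the limit of the test.

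The 2 helicases moved unequally. The log2 ratio of *Ddx25* to *Ddx4* was -2.84, -2.77 and -3.05 in the controls and -3.61, -3.75 and -3.61 in the cKO, a difference of -0.77. The ratios of the 2 groups did not overlap. The exact two-sided permutation test over 3 against 3 libraries gave p = 0.1, the smallest value it can give.

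The DAZ family genes went in opposite directions. DAZL acts from early germ cells through meiosis, and BOLL, the ancestral member of the family, is known for its requirement in spermatids. *Dazl* (chr17:50279395-50293636, minus strand) stood at 407, 363 and 407 FPKM in the controls and at 485, 584 and 517 FPKM in the cKO, so its highest control was below its lowest cKO library. The mean rose from 392 ± 25.7 to 529 ± 50.7 FPKM, 135% of control, with a log2 fold change of 0.43 (SE 0.099, limma adjusted p = 0.0159). *Dazl* ranked 37th among protein-coding genes in the controls and 18th in the cKO. Without cKO replicate 3 its adjusted p was 0.0506 at a log2 fold change of 0.44. With a replicate block in the limma fit its adjusted p was 0.0647.

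*Boll* (chr1:55248658-55363469, minus strand) stood at 36.1, 25.3 and 30.9 FPKM in the controls and at 17.97, 22.9 and 17.94 FPKM in the cKO. The lowest control and the highest cKO library were separated by a small gap. The mean fell from 30.8 ± 5.39 to 19.6 ± 2.88 FPKM, 63.7% of control, with a log2 fold change of -0.62 (SE 0.15, limma adjusted p = 0.0192). Its call was lost without control replicate 1, control replicate 3, cKO replicate 1 or cKO replicate 3, with adjusted p from 0.0567 to 0.0708 and a log2 fold change of -0.61 to -0.50. With a replicate block in the limma fit the adjusted p of *Boll* was 0.0608. The log2 ratio of *Boll* to *Dazl* was -3.46, -3.79 and -3.68 in the controls and -4.68, -4.61 and -4.77 in the cKO, a difference of -1.05 (exact two-sided permutation p = 0.1, the smallest possible). All 3 cKO ratios were below the controls.

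*Dnd1* encodes a vertebrate germ cell protein whose loss depletes germ cells and leads to teratomas in susceptible mice. It was read at 8.83, 15.1 and 12.2 FPKM in the controls and at 21.4, 19.05 and 21.4 FPKM in the cKO. The controls differed by 1.71-fold among themselves, yet none reached the lowest cKO library. The mean rose from 12.1 ± 3.13 to 20.6 ± 1.35 FPKM, 171% of control, with a log2 fold change of 0.75 (SE 0.17, limma adjusted p = 0.0160). The adjusted p was 0.0543 without cKO replicate 1 and 0.0577 without cKO replicate 3. Of the exon bases of *Dnd1*, 5.80% are shared with *Wdr55* on the opposite strand, which averaged 21.3 FPKM in the controls and 28.0 FPKM in the cKO. Strand use in counting is not given in the sources used here, so reads of those bases cannot be told apart.

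*Cpeb1* (chr7:81347026-81455465, minus strand), whose product binds cytoplasmic polyadenylation elements and controls the length of the poly(A) tail, was read at 52.2, 46.1 and 50.6 FPKM in the controls and at 36.0, 42.7 and 41.8 FPKM in the cKO. The groups did not overlap. The mean was 49.6 ± 3.17 FPKM in the controls and 40.2 ± 3.65 FPKM in the cKO, 80.9% of control, with a log2 fold change of -0.30 (SE 0.090, limma adjusted p = 0.0402). The call was lost without control replicate 1, control replicate 3, cKO replicate 1 or cKO replicate 3, with adjusted p from 0.0796 to 0.122.

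The Musashi genes did not pass the test. *Msi1* (chr5:115429599-115455698, plus strand) stood at 22.9, 26.7 and 25.7 FPKM in the controls and at 28.8, 20.2 and 27.9 FPKM in the cKO. The cKO values spanned the whole control range. Its log2 fold change was 0.014 with a 95% interval from -0.32 to 0.35 (limma adjusted p = 0.946). *Msi2* (chr11:88339382-88718513, minus strand) stood at 3.25, 4.68 and 3.88 FPKM in the controls and at 4.09, 4.09 and 4.35 FPKM in the cKO, all 3 cKO values lying inside the control range. Its log2 fold change was 0.078 with a 95% interval from -0.23 to 0.39 (limma adjusted p = 0.677). The intervals show the range of changes that these 3 libraries a group leave possible for each gene. The log2 ratio of *Msi1* to *Msi2* differed by -0.064 between groups (exact two-sided permutation p = 0.8), and its sign turned to 0.081 without cKO replicate 2. *Msi1* is also expressed by Sertoli cells, and the summed FPKM of 6 Sertoli markers was 69.4, 55.0 and 83.4 in the controls and 116, 46.3 and 63.5 in the cKO, in the library order of the *Msi1* values. Most of each sum was *Clu*, at 52.4, 42.1 and 63.1 FPKM in the controls and 79.3, 32.6 and 44.4 FPKM in the cKO. The lowest Sertoli sum went with the lowest *Msi1* value in the cKO and with the highest in the controls. The part of Sertoli cell RNA in the *Msi1* values was not tested.

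**Figure D2:**
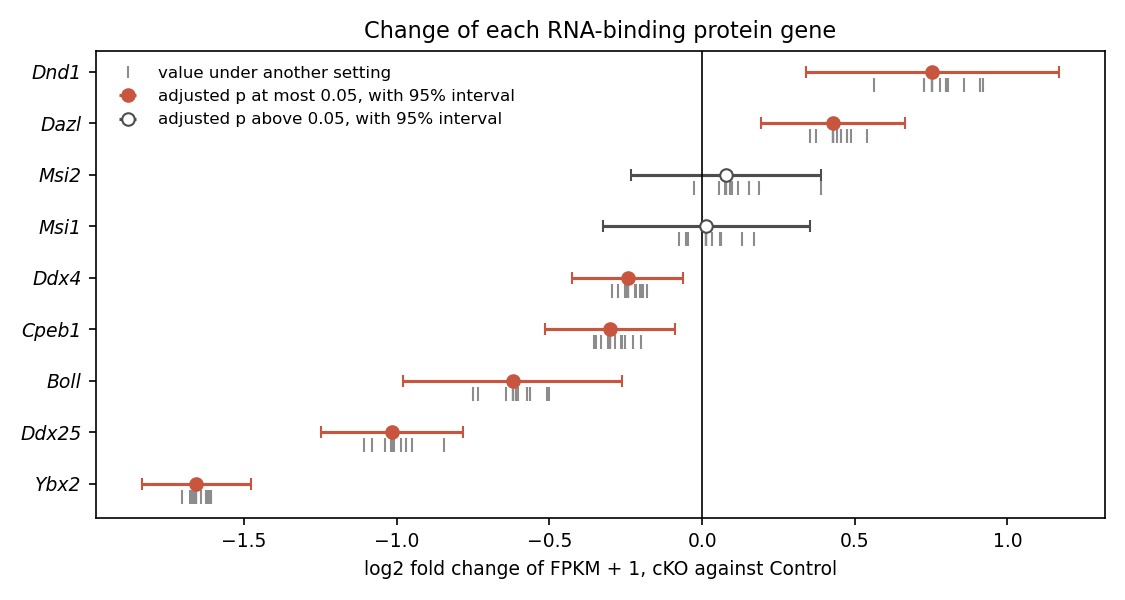
Log2 fold change of FPKM + 1, cKO against control, of each gene with its 95% interval, filled where the adjusted p was at most 0.05, and grey ticks for the value under each alternative setting. *Ybx2* (-1.66) and *Ddx25* (-1.02) lie furthest below 0, *Dnd1* (0.75) and *Dazl* (0.43) lie above it, and the ticks of *Msi1* and *Msi2* fall on both sides.

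The order of the 9 mRNAs by FPKM, a level per length, differed between groups. In the controls the order was *Ybx2*, *Dazl*, *Ddx4*, *Cpeb1*, *Boll*, *Msi1*, *Ddx25*, *Dnd1* and *Msi2*, in which *Ybx2* overlapped with *Dazl* and *Boll* with *Msi1*. In the cKO it was *Dazl*, *Ddx4*, *Ybx2*, *Cpeb1*, *Msi1*, *Dnd1*, *Boll*, *Ddx25* and *Msi2*, with overlaps between *Ddx4* and *Ybx2* and among *Msi1*, *Dnd1* and *Boll*, each of which overlapped with the other two. By FPKM *Dnd1* was thus below *Ddx25* in the 3 controls and above it in the 3 cKO libraries. The length used was that of all merged exons, 2412 bases for *Dnd1* against 1451 in its longest coding transcript. For *Ddx25* both were 6934 bases. The order between genes and their shares of a summed FPKM depend on the length used. The summed FPKM of the 9 was 1121 ± 40.1 in the controls and 918 ± 60.9 in the cKO. Of that sum, *Dazl* made up 35.0% ± 1.80 in the controls and 57.5% ± 1.75 in the cKO, and *Ybx2* 38.1% ± 1.92 and 14.7% ± 0.923. The share of *Ddx4* was 14.2% ± 0.243 and 14.7% ± 0.267, and that of *Cpeb1* 4.43% ± 0.182 and 4.37% ± 0.266.

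Most markers of pachytene spermatocytes and all of those of spermatids were lower in the cKO, while the summed markers of earlier stages overlapped between groups. The summed FPKM of 7 pachytene spermatocyte markers ranged from 607 to 700 in the controls and from 107 to 130 in the cKO, with 5 of 7 lower and 1 higher (*Hist1h1t*). *Mybl1* did not pass. *Ldhc* made up 339 to 429 FPKM of the control sums and 0.685 to 1.37 FPKM of the cKO sums. All 8 spermatid markers were lower, and their sum was 309, 750 and 292 FPKM in the controls against 7.61 to 9.30 FPKM in the cKO. The sums for 6 differentiating spermatogonia markers were 564 to 589 and 584 to 634 FPKM, with 1 lower (*Dmrtb1*), and those for 8 early meiotic prophase markers were 544 to 756 and 564 to 748 FPKM, with 2 lower (*Rec8* and *Spo11*). Those counts come to 16.7% and 25% lower, against 22.2% of all genes tested. The differentiating sum includes *Stra8*, for whose product the STRA8+ cells are named, at 222 to 262 FPKM in the controls and 242 to 313 FPKM in the cKO. Among 6 undifferentiated spermatogonia markers, 1 rose (*Ret*) and 1 fell (*Id4*), with sums of 32.9 to 38.0 and 34.0 to 40.9 FPKM. Each of these counts comes to 16.7%, against 11.8% higher and 22.2% lower among all genes tested. In these bulk libraries fewer cells of a type and less RNA per cell cannot be told apart. The part of the stage markers in the values of *Ybx2*, *Ddx25*, *Boll*, *Dazl* and the other members was not tested. Control replicate 2, with the highest spermatid sum, was the lowest control for *Boll*, *Dazl*, *Ddx4* and *Cpeb1*, the highest for *Dnd1*, *Msi1* and *Msi2*, and the middle one for *Ybx2* and *Ddx25*.

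**Figure D3:**
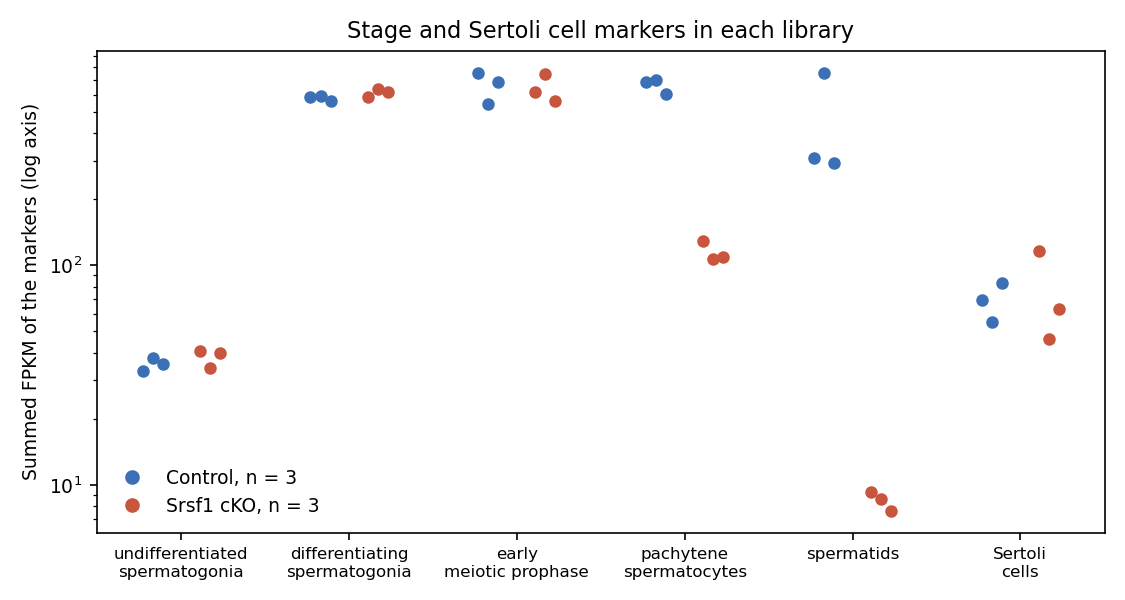
Summed FPKM on a log axis of the markers of 5 germ cell stages and of Sertoli cells, with 1 point per library, control in blue and cKO in red. The pachytene and spermatid sums of the groups are apart, at 607 to 700 against 107 to 130 and at 292 to 750 against 7.61 to 9.30, while the other sums overlap or lie close together.

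The proteins that work with the 9 were followed in a list of 53 other translational regulators, of which 51 passed the filter. In the cKO 10 rose and 13 fell, and 28 did not pass, with a median log2 fold change of 0.0013. Those counts come to 19.6% and 25.5% of the 51, against 11.8% and 22.2% of all genes tested. Of the 23, 10 kept their call under the 15 alternatives, namely *Papd4*, *Ddx6* and *Lsm14a*, which rose, and *Dazap1*, *Ybx1*, *Ybx3*, *Pabpc1*, *Pabpc2*, *Papolb* and *Larp1*, which fell.

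The relatives of the members did not move as 1 group. Of the CPEB genes, *Cpeb4* stood at 25.2, 19.9 and 23.7 FPKM in the controls and at 34.1, 40.8 and 29.9 FPKM in the cKO, a log2 fold change of 0.58 (SE 0.13, limma adjusted p = 0.0159), opposite in sign to *Cpeb1*. With a replicate block in the limma fit the adjusted p of *Cpeb4* was 0.0511. *Cpeb3* averaged 4.81 and 2.85 FPKM (log2 fold change -0.57, limma adjusted p = 0.0350), a call lost without control replicate 3 or any 1 cKO library. *Cpeb2* averaged 23.8 and 20.4 FPKM and did not pass with all 6 libraries, though it did without cKO replicate 2 (log2 fold change -0.37). Of the DAZ-associated genes, *Dazap1*, whose product binds DAZL, fell from 53.5 to 37.6 FPKM (log2 fold change -0.50, limma adjusted p = 0.00538), and *Dazap2* averaged 161 and 155 FPKM and did not pass. Among the Nanos and Pumilio genes, whose products repress mRNAs in germ line stem cells, *Pum2* averaged 32.2 and 41.5 FPKM (log2 fold change 0.36, limma adjusted p = 0.0341), a call lost without control replicate 2, control replicate 3, cKO replicate 1 or cKO replicate 2. *Nanos1* and *Nanos3* did not pass with all 6 libraries, though *Nanos1* did without control replicate 2 (log2 fold change 0.35, limma adjusted p = 0.0327), and *Nanos2*, the partner of DND1 in male germ cells, had 0 to 3 fragments per library and was not tested.

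Beside *Ybx3*, the largest differences in the list were in testis forms of poly(A) factors. *Pabpc2*, a testis poly(A)-binding protein gene, stood at 47.4, 44.8 and 41.7 FPKM in the controls, from 1776 to 2017 fragments per library, and had 0 fragments in each cKO library. Against a floor of 3 fragments per library, which covers counting error only, it was at least 584-fold lower. *Papolb*, the testis poly(A) polymerase gene, stood at 24.3, 31.3 and 22.2 FPKM in the controls and at 2.03, 2.19 and 1.89 FPKM in the cKO, a log2 fold change of -3.13 (SE 0.14, limma adjusted p = 9.19e-06). The other genes of these roles differed less and not in 1 direction. *Pabpc1* fell from 214 to 147 FPKM, while *Pabpc4* (25.3 and 30.2 FPKM), *Papola* (45.4 and 40.3 FPKM) and *Papolg* (23.8 and 30.5 FPKM, groups not overlapping) did not pass. *Papd4*, which encodes the cytoplasmic poly(A) polymerase GLD2 that works with CPEB proteins, rose from 13.4 to 19.5 FPKM (log2 fold change 0.50, limma adjusted p = 0.00356). Of 7 genes of the CCR4-NOT deadenylase, which shortens tails, *Cnot8* was called higher, at 20.5 and 24.6 FPKM, where 11.8% of all genes tested were, and the call was kept only without control replicate 2 among the 6 fits with a library left out.

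Genes of repressed mRNP particles, where untranslated mRNAs are held, gave 3 higher and 1 lower of 4, where 11.8% and 22.2% of all genes tested were called, and 2 of the 4 calls did not hold when libraries were left out. *Ddx6*, a helicase of such particles, rose from 35.0 to 44.5 FPKM, and *Lsm14a* from 29.1 to 39.0 FPKM. *Patl1* (38.0 and 45.8 FPKM) and *Lsm14b* (77.2 and 66.5 FPKM) were called with adjusted p of 0.0301 and 0.0352 by limma, and lost the call in 6 and 5 of the 6 fits with a library left out, *Lsm14b* keeping it without control replicate 2. The DDX3 helicase genes differed in sign, *Ddx3x* averaging 13.9 and 19.6 FPKM and its testis relative *D1Pas1* 43.3 and 35.3 FPKM. Both calls were lost without control replicate 1, cKO replicate 1 or cKO replicate 3, and that of *D1Pas1* also without control replicate 2. *Larp1* fell from 46.7 to 31.0 FPKM and *Eif4g3* from 28.5 to 20.8 FPKM, the latter call lost without cKO replicate 3. The call of *Fmr1* (55.3 and 76.4 FPKM, higher) was lost without control replicate 1 or any 1 cKO library, and that of *Igf2bp3* (3.47 and 1.68 FPKM, lower) without cKO replicate 2 or 3. The call of *Fxr1* (42.9 and 34.4 FPKM, lower) was kept only without control replicate 3 among these fits, and that of *Eif4enif1* (43.8 and 53.1 FPKM, higher) in none.

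**Figure D4:**
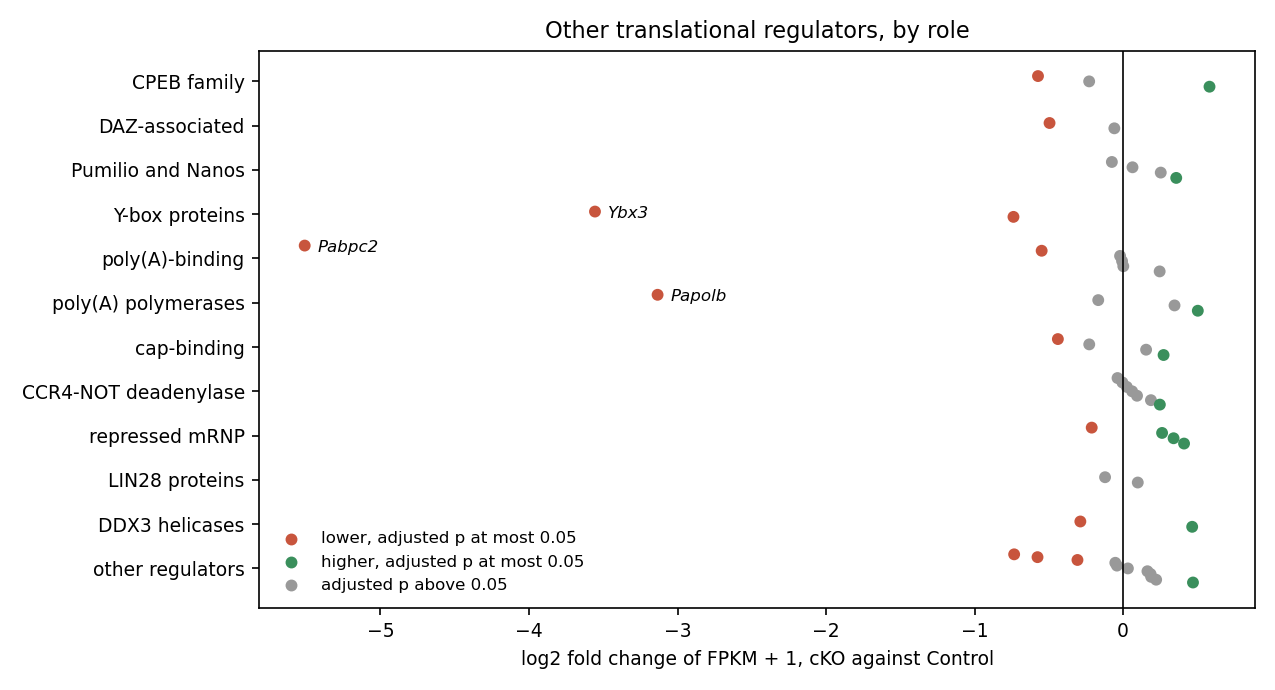
Log2 fold change of FPKM + 1, cKO against control, of 51 translational regulators in rows by role, with lower genes in red, higher in green and those with adjusted p above 0.05 in grey. *Pabpc2*, *Ybx3* and *Papolb* stand apart at the left, and the value plotted for *Pabpc2*, at 0 fragments in the cKO, depends on the added 1 FPKM.

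Next, 13 mRNAs known for control by DAZL, CPEB1, YBX2, DDX25, DND1 or Musashi proteins, or for delayed translation in spermatids, were examined. Of the 12 tested, 1 rose and 6 fell, 8.33% and 50% against 11.8% and 22.2% of all genes tested. *Sycp1* and *Sycp3*, synaptonemal complex mRNAs known for control by DAZL and CPEB1, averaged 177 and 200 FPKM and 222 and 218 FPKM and did not pass. *Tex19.1*, another mRNA bound by DAZL, stood at 65.6, 75.8 and 69.2 FPKM in the controls and at 102, 97.0 and 98.3 FPKM in the cKO (log2 fold change 0.49, SE 0.073, limma adjusted p = 0.00243). Its direction was that of *Dazl*.

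Of 6 mRNAs known for storage with YBX2 or DDX25, or for delayed translation in spermatids, 5 fell, where 22.2% of all genes tested were lower. The protamine mRNA *Prm1* stood at 720, 2431 and 696 FPKM in the controls and at 1.23, 1.32 and 1.27 FPKM in the cKO. *Prm2* ranged from 524 to 1651 FPKM in the controls and from 0.221 to 0.687 FPKM in the cKO. The transition protein mRNAs *Tnp1* and *Tnp2* ranged from 321 to 1205 and from 708 to 2648 FPKM in the controls, and from 0.452 to 1.02 and from 0.356 to 0.863 FPKM in the cKO. *Pgk2*, the testis phosphoglycerate kinase mRNA, stood at 46.8, 101 and 39.7 FPKM in the controls and had 1 fragment in cKO replicate 3 and 0 in the others. Control replicate 2 was the highest control for these 5, as it was for the spermatid markers, and the calls were kept without it. *Camk4* averaged 2.06 and 1.18 FPKM and did not pass. *Piwil1*, a PIWI protein mRNA of pachytene cells known for control by Musashi proteins, stood at 67.5, 45.7 and 47.5 FPKM in the controls and at 2.69, 2.29 and 2.69 FPKM in the cKO, while *Numb*, the classical Musashi target, averaged 26.6 and 29.8 FPKM and did not pass. *Lats2*, known for control by DND1, averaged 9.22 and 8.51 FPKM and did not pass, and *Cdkn1b* was below the filter.

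For each called member the 3 protein-coding genes with the nearest profile were found among 12319 tested, by the Euclidean distance over the 6 libraries of log2(FPKM + 1) minus the control mean. The nearest to *Dazl* were *Prpf3*, *Gpkow* and *Suz12*, at distances of 0.0466 to 0.0689. The nearest to *Dnd1* were *Sema6b*, *Cenpa* and *Neurl1b*, at 0.163 to 0.214. Those to *Ybx2* were *Cep63*, *Armc4* and *Efhb* at 0.115 to 0.163, of which *Armc4* averaged 2.97 and 0.273 FPKM and *Efhb* 2.76 and 0.231 FPKM, so that the added 1 FPKM made their differences smaller. Those to *Ddx25* were *Serpinb6a*, *Pkig* and *Mif4gd*, at 0.114 to 0.116. *Boll* was nearest to *Mageb3*, *Ccdc172* and *Dpep3* at 0.123 to 0.140, *Ddx4* to *Tmem42*, *Pex13* and *Flot2* at 0.0626 to 0.0656, and *Cpeb1* to *Arrdc1*, *Becn1* and *Tmem246* at 0.0615 to 0.0926. Members with small changes had the closest neighbours. No called member was among the nearest 3 of another.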

How the data were processed

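RNA-seq of STRA8+ mouse testis cells, 3 control and 3 *Srsf1* cKO libraries, was analysed from 1 deposited table. The authors gave FPKM per gene and library with gene lengths, and the submitters' processing notes name HISAT2 2.0.5 and mm10. The counting tool and strand setting are not given in the sources used here. Gene coordinates and lengths of the 9 members were identical to GENCODE M21 on GRCm38. FPKM times length gave whole fragments for 100% of values (tolerance 0.01 fragments), at 14447887 to 17310353 per library. The median-of-ratios factors of the deposited FPKM were identical in all 6 libraries, so that scaling gave the same counts of calls.

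The 15451 genes averaging 1 FPKM or more were fitted with limma 3.58.1 in R 4.3.3 on log2(FPKM + 1), with an intensity trend in eBayes and Benjamini-Hochberg adjustment. The pseudocount understates changes of low genes. The fit was tested on simulated data. Ratios of 2 genes were compared by exact two-sided permutation tests (scipy 1.17.1). Alternatives were a pseudocount of 0.1, no filter, a filter of 5 FPKM, median-of-ratios and quantile scaling, FPKM recomputed from the fragments, limma-voom on the fragments, eBayes without the trend, a replicate block and leaving out each library.

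The text names the 9 members, *Srsf1* and the called genes of the regulator and target lists. It also names relatives of the members and the 3 nearest profiles of each called member. Only some of the markers are named, and these were not picked by that rule. Uncalled genes named as counterparts or as members of the target list, and *Wdr55*, were chosen after their values were seen. An item of the regulator list is not reported here by name. The members, gene lists and markers were chosen with earlier results of these data known. Promoters are RefSeq sequences, matched by symbol for 7 members.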

Additional observations from a re-analysis of the deposited data

How the results depend on the processing

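The directions of the 7 called members were kept in all 15 alternatives, but their number moved. The count of higher members, 2, became 3 with quantile scaling, 1 with the replicate block and 0 to 2 without 1 library. The count of lower members, 5, became 3 with no filter, with quantile scaling, with recomputed FPKM and with eBayes without the trend, 2 with the replicate block, and 2 to 5 without 1 library. Regulators higher, 10, became 16 with quantile scaling, 5 without the trend, 4 with the block and 4 to 8 without 1 library, and regulators lower, 13, became 8 with quantile scaling and 7 to 11 without 1 library. Target mRNAs higher, 1, became 2 with quantile scaling. Under quantile scaling the median over all genes tested shifted from -0.0082 to 0.21 (log2) and their calls from 1821 higher and 3437 lower to 5164 and 2527, so changes are read against that shift, and *Msi2* (0.39, adjusted p = 0.0335) and *Nanos1* (0.44, adjusted p = 0.0160) passed there. The block gave 891 higher and 2870 lower, limma-voom 2482 and 3334. Left-out libraries gave 965 to 1752 higher.

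The log2 ratio of *Msi1* to *Msi2* ranged from -0.16 to 0.081 without 1 library. With each library left out in turn, log2 fold changes ranged from -0.075 to 0.17 for *Msi1*, from -0.025 to 0.18 for *Msi2* and from -0.026 to 0.24 for *Nanos3*. The sign turned for uncalled genes, in *Msi1* at -0.047, -0.075 and -0.053 without control replicate 1, cKO replicate 1 and cKO replicate 3, in *Msi2* at -0.025 without control replicate 1, in *Nanos3* at -0.024 and -0.026 without control replicates 1 and 3, and in *Dazap2* at 0.0017 with quantile scaling and at 0.0077 and 0.041 without control replicate 1 and cKO replicate 1. The cause was not tested, though a left-out library also leaves fewer samples. Same-numbered libraries did not pair: their deviations correlated at -0.0014, -0.11 and 0.016. With 3 libraries a group, an exact test of a ratio cannot go below 0.1.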
